A study of Danio rerio with 12 samples.

Results

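The early myogenic and slow muscle genes myod1, myf5, prdm1a, smyhc1, unc45b and smyd1b were followed in whole zebrafish embryos at the tailbud stage. The 6 genes are a set named by function, and no measured value is part of the rule, but they were chosen with earlier results of these data known. Counts of called rows set beside shares of all genes are therefore a description and not an independent test. The genes were looked up by symbol among the 32520 Ensembl genes of the deposited count table. Exact symbols gave myod1 (ENSDARG00000030110), myf5 (ENSDARG00000007277), smyhc1 (ENSDARG00000099959) and unc45b (ENSDARG00000008433). The symbol prdm1a is listed as PRDM1 (ENSDARG00000002445), next to a row of its own for prdm1b. For smyd1b the name table holds 2 rows called SMYD1, and it does not say which of them is smyd1b, so ENSDARG00000009280 and ENSDARG00000091253 are both described under their identifiers. The lookup of the 6 genes thus gave 7 rows, and all 7 were among the 21400 genes tested. Of the 2 SMYD1 rows, 1 may be the related gene smyd1a, which is not in the set. Counts over the 7 rows may therefore include a gene that is not a member.

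Skeletal muscle of the zebrafish begins in the paraxial mesoderm, where the transcription factors Myod1 and Myf5 commit cells to the muscle fate. The adaxial cells, the row of muscle precursors that lies beside the notochord, receive Hedgehog signals, switch on prdm1a and become the slow muscle fibres. Slow fibres then make the slow myosin heavy chain Smyhc1, and new myosin is folded and built into thick filaments with the help of the chaperone Unc45b and the muscle methyltransferase Smyd1b.

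Embryos of the wild-type TU strain had received 1 ng of either a morpholino that blocks the start codon of tif1γ (written tif1g here; the gene trim33, a transcriptional cofactor) or the standard control morpholino, injected at the 1 to 2 cell stage. From 5.3 to 10 hours after fertilisation they were kept in 7 µM leflunomide, an inhibitor of pyrimidine synthesis, or in DMSO, its solvent. The 4 groups were tif1g leflunomide, tif1g DMSO, control leflunomide and control DMSO, with 3 libraries each, and every group carries an injected morpholino. Each library came from a pool of 109 whole embryos, was depleted of ribosomal RNA and was sequenced with strand information.

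Library totals ran from 27574593 to 32088082 counts. The trim33 transcript averaged 422 ± 8.88 CPM in tif1g leflunomide, 380 ± 12.5 CPM in tif1g DMSO, 81.5 ± 3.64 CPM in control leflunomide and 74.9 ± 5.03 CPM in control DMSO (SD, n = 3 each). A morpholino of this type blocks translation, so the RNA level does not measure the knockdown, but it does part the libraries by their labelled morpholino. All levels are CPM, counts as a share of the library total after TMM factors, which correct for library composition. Differences are log2 fold changes from edgeR's quasi-likelihood test, with a standard error worked back from its F statistic. Calls were made where the Benjamini-Hochberg adjusted p over all 21400 genes was under 0.05. Per the series text, injected embryos of a clutch were divided between leflunomide and DMSO, and libraries of the same replicate number deviated together, but whether a number stands for a clutch is not given. The p-values printed without further remark leave the number out of the fit and measure the spread between these pools. Values from the fit with the replicate number as a block are given where they change a call or move a count by over 1.5 times. In RNA of whole embryos, fewer cells of a type and less RNA per cell cannot be told apart.

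Which transcripts of the set differed in level after the tif1g knockdown was asked by 2 comparisons. The knockdown in DMSO set tif1g DMSO against control DMSO. Of the 7 rows, 4 fell (smyhc1, SMYD1 ENSDARG00000091253, unc45b and myf5), none rose, and myod1, prdm1a and SMYD1 ENSDARG00000009280 were not called. Over all genes tested in that comparison, 32.8% were called, 15.6% higher and 17.2% lower. The 3 tif1g libraries lay below the 3 control libraries without overlap in 5 of the 7 rows and above in none, beside 22% and 21.7% of all genes. In leflunomide, where tif1g leflunomide was set against control leflunomide, smyhc1 and unc45b fell and the other 5 rows were not called. There, 23.8% of all genes were called, 12% higher and 11.8% lower. Groups lay below without overlap in 4 rows and above in 1, beside 19.9% and 20.2% of all genes. With the replicate number as a block, 42.2% of all genes and 5 of the 7 rows were called in DMSO, and 33.7% of all genes and 3 of the 7 rows in leflunomide.

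**Figure D1:**
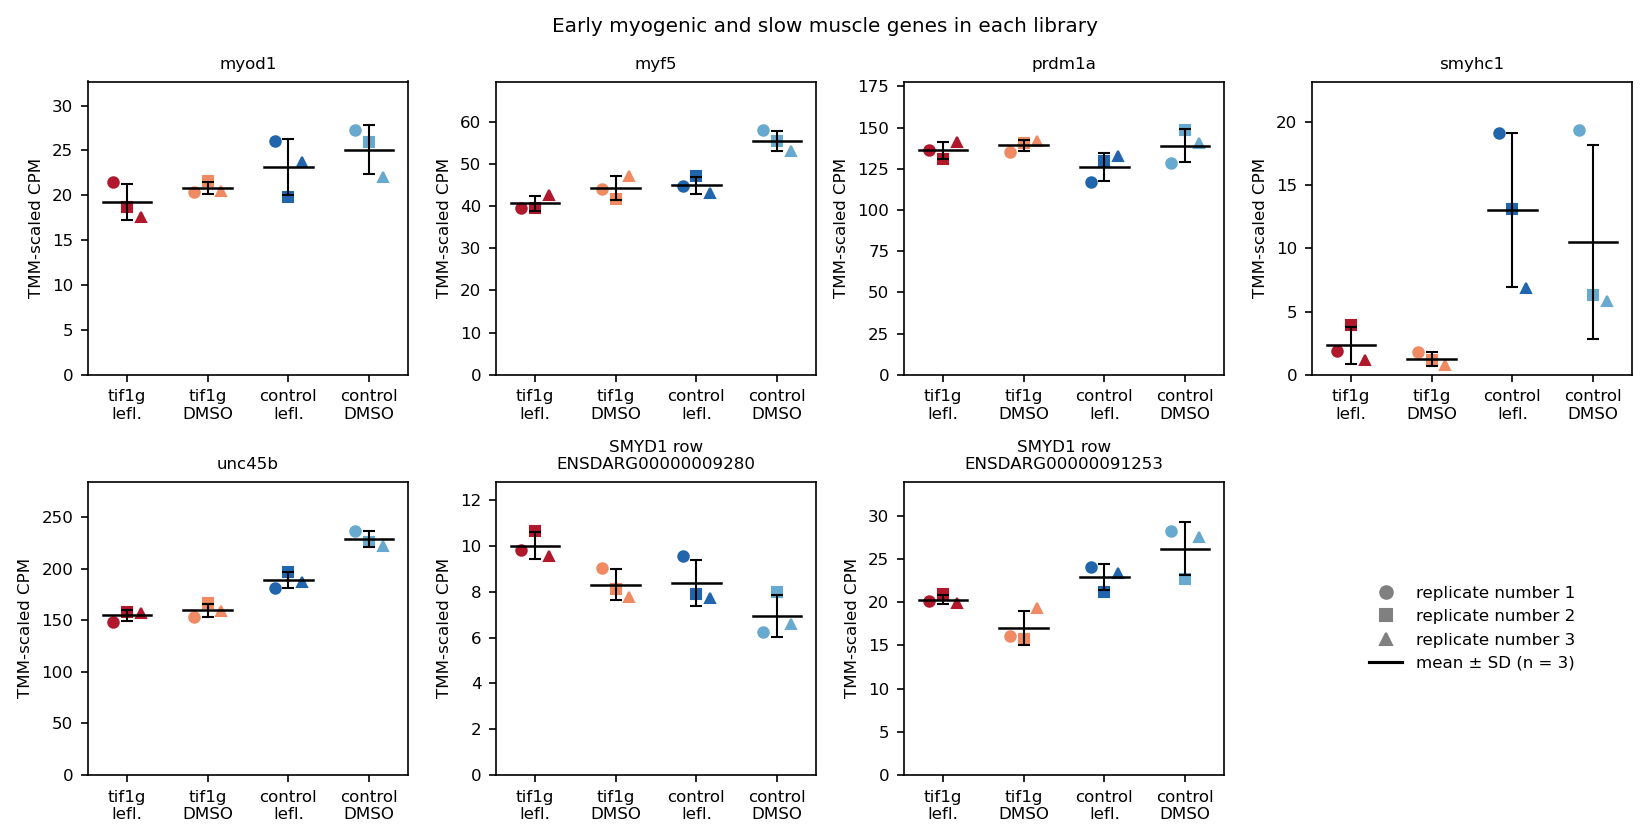
TMM-scaled CPM (y axis, starting at 0) of each row in the 12 libraries, by group, with symbols for the replicate number and a line and bar for the mean ± SD of 3 libraries. The tif1g libraries of smyhc1 lie between 0.776 and 3.97 CPM, below the control libraries at 5.80 to 19.3 CPM, while those of prdm1a overlap.

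The slow myosin heavy chain gene smyhc1 had the largest fold difference of the 7 rows. In DMSO its level in replicates 1, 2 and 3 was 1.82, 1.18 and 0.776 CPM in tif1g embryos, against 19.3, 6.30 and 5.80 CPM in control embryos. In leflunomide it was 1.90, 3.97 and 1.16 CPM in tif1g embryos, against 19.1, 13.1 and 6.90 CPM in control embryos. Every tif1g library lay below every control library, and replicate 1 was the highest control library in both treatments. Behind these levels stood 52, 34 and 22 counts in tif1g DMSO, against 574, 179 and 168 counts in control DMSO. In leflunomide they were 54, 122 and 33 counts in tif1g embryos, against 571, 403 and 195 counts in control embryos.

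After the knockdown in DMSO, smyhc1 fell by 3.05 ± 0.73 (SE) in log2 units, which is 8.30-fold, with an adjusted p of 0.0120. Its 95% interval was wide, -4.72 to -1.39. In leflunomide it fell by 2.47 ± 0.67 (5.52-fold, adjusted p = 0.0287). The spread between replicates was far above counting error. The coefficient of variation was 41.8% in tif1g DMSO and 73.2% in control DMSO, where counting alone gives 16.7% and 5.71%. Without replicate 1 of control DMSO, the library that stands highest, the log2 fold change was -2.26 (adjusted p = 0.0259).

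The call of smyhc1 in DMSO held without any single library and was lost without replicate 2 of every group at once (log2 fold change -3.27, adjusted p = 0.0808). The call in leflunomide was lost without replicate 1 or 3 of tif1g leflunomide (adjusted p = 0.0940 and 0.0954) and without replicate 1 or 2 of control leflunomide (adjusted p = 0.0872 and 0.0651). It was also lost without number 1, 2 or 3 of every group (adjusted p = 0.0670, 0.112 and 0.0882). Over the fits that left out libraries the log2 fold change ran from -3.42 to -2.26 in DMSO and from -3.09 to -1.97 in leflunomide. With the replicate number as a block both falls were called, at an adjusted p of 0.00216 in DMSO and 0.00459 in leflunomide.

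The chaperone gene unc45b, whose product folds the myosin motor domain together with Hsp90, had a coefficient of variation of 3.33% to 4.12% within the groups. In DMSO it stood at 153, 166 and 160 CPM in tif1g embryos, against 237, 227 and 223 CPM in control embryos. In leflunomide it stood at 149, 159 and 157 CPM in tif1g embryos, against 182, 197 and 188 CPM in control embryos. Neither pair of groups overlapped, and all 6 tif1g libraries lay below all 6 control libraries. In DMSO unc45b fell by 0.52 ± 0.05 in log2 units (1.43-fold, adjusted p = 8.55e-07). In leflunomide it fell by 0.29 ± 0.05 (1.22-fold, adjusted p = 0.00066). Both calls held under each of the 21 alternative settings that were run. On genome assembly GRCz12tu, unc45b lies on the chromosome of trim33 with 7 protein-coding genes between them. Whether this bears on its level was not tested.

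The SMYD1 rows encode a methyltransferase of muscle that assists myosin assembly, and 1 of the 2 fell. SMYD1 ENSDARG00000091253 stood at 16.1, 15.7 and 19.3 CPM in tif1g DMSO, against 28.3, 22.6 and 27.6 CPM in control DMSO. All 3 tif1g libraries were lower, and the row fell by 0.62 ± 0.10 in log2 units (1.54-fold, adjusted p = 0.000119). In leflunomide it stood at 20.1, 20.9 and 19.9 CPM in tif1g embryos, against 24.1, 21.2 and 23.4 CPM in control embryos. These groups lay side by side without overlap, and the difference of -0.17 ± 0.10 was not called (adjusted p = 0.236).

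SMYD1 ENSDARG00000009280 had higher means in tif1g than in control embryos in both treatments and was called in neither. It stood at 9.06, 8.12 and 7.76 CPM in tif1g DMSO, against 6.23, 7.99 and 6.59 CPM in control DMSO. The groups overlapped, with a log2 difference of 0.26 ± 0.13 (adjusted p = 0.148). In leflunomide it stood at 9.84, 10.7 and 9.56 CPM in tif1g embryos, against 9.56, 7.91 and 7.75 CPM in control embryos. These groups met at 9.56 CPM without overlap, and the difference was 0.25 ± 0.13 (adjusted p = 0.181). How reads were shared between the 2 SMYD1 rows in counting is not given.

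Of the myogenic factors, myf5 fell modestly after the knockdown in DMSO. It stood at 44.0, 41.7 and 47.2 CPM in tif1g DMSO, against 58.0, 55.4 and 53.2 CPM in control DMSO. No tif1g library reached the lowest control library, and myf5 fell by 0.33 ± 0.07 in log2 units (1.25-fold, adjusted p = 0.000874). In leflunomide it stood at 39.6, 39.7 and 42.6 CPM in tif1g embryos, against 44.8, 47.1 and 43.0 CPM in control embryos. The lowest control library exceeded the highest tif1g library by a small margin, and the difference of -0.15 ± 0.07 was not called (adjusted p = 0.123).

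The transcript of myod1, which acts with Myf5 in muscle commitment and is on in adaxial cells, had lower means in tif1g embryos. It stood at 20.4, 21.6 and 20.4 CPM in tif1g DMSO, against 27.2, 26.0 and 22.1 CPM in control DMSO. In leflunomide it stood at 21.5, 18.7 and 17.6 CPM in tif1g embryos, against 26.1, 19.8 and 23.7 CPM in control embryos. The groups were apart in DMSO and overlapped in leflunomide, and in both treatments each tif1g library was below the control library of its replicate number. The log2 difference was -0.27 ± 0.11 in DMSO (adjusted p = 0.0610) and -0.27 ± 0.11 in leflunomide (adjusted p = 0.0830), neither called. With the replicate number as a block, both were called, at an adjusted p of 0.0123 in DMSO and 0.0161 in leflunomide. The fall in DMSO was also called without replicate 2 of control leflunomide or without replicate 3 of control DMSO.

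The gene for the slow fibre regulator Prdm1a, which directs adaxial cells towards the slow fate, was not called after the knockdown. It stood at 135, 141 and 142 CPM in tif1g DMSO, against 128, 148 and 141 CPM in control DMSO, and the groups overlapped. The log2 difference was 0.00 ± 0.06 with a 95% interval of -0.13 to 0.13 (adjusted p = 0.990). In leflunomide it stood at 136, 131 and 142 CPM in tif1g embryos, against 117, 130 and 133 CPM in control embryos, a difference of 0.11 ± 0.06 (adjusted p = 0.231). At this stage prdm1a is also on in the hatching gland, the prechordal plate and the neural plate border, so its level in whole embryos sums over several tissues.

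Over both treatments, all 6 tif1g libraries lay below all 6 control libraries for smyhc1, unc45b and SMYD1 ENSDARG00000091253, which is 3 of the 7 rows. Of all genes tested, 8.92% lay below in that way and 7.79% above. The ranges were 149 to 166 CPM in tif1g embryos and 182 to 237 CPM in control embryos for unc45b. For SMYD1 ENSDARG00000091253 they were 15.7 to 20.9 CPM in tif1g embryos and 21.2 to 28.3 CPM in control embryos. The other 4 rows overlapped.

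**Figure D2:**
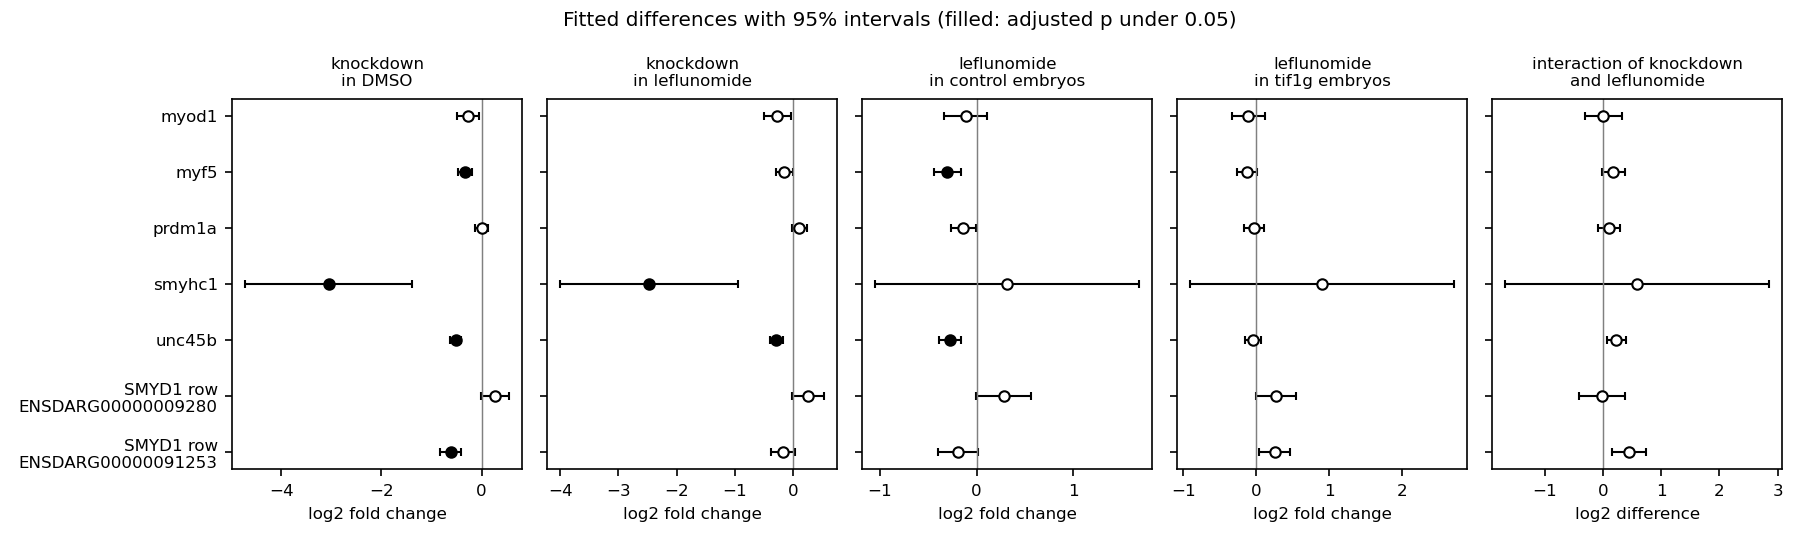
Log2 fold change (x axis) of each row in the 5 fitted comparisons with its 95% interval, filled where the adjusted p was under 0.05. The interval of smyhc1 is the widest in each panel, and unc45b is called in the first 3 panels.

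Leflunomide in control embryos set control leflunomide against control DMSO, which is also the control group of the knockdown in DMSO. Because the 2 comparisons share these 3 libraries, their values are given side by side and their likeness is not evidence of a shared effect. Of the 7 rows, unc45b and myf5 fell, and the other 5 were not called. Over all genes 21.9% were called, 8.87% higher and 13.1% lower, and with the block 31.4% of all genes and 3 of the 7 rows. Groups lay below without overlap in the same 2 rows and above in none, beside 19.2% and 17.3% of all genes.

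With leflunomide in control embryos, unc45b fell by 0.28 ± 0.05 in log2 units (182, 197 and 188 CPM in leflunomide, against 237, 227 and 223 CPM in DMSO, adjusted p = 0.00115). The myf5 transcript fell by 0.30 ± 0.07 (44.8, 47.1 and 43.0 CPM in leflunomide, against 58.0, 55.4 and 53.2 CPM in DMSO, adjusted p = 0.00261). In both genes the groups did not overlap. The composition factors of the control DMSO libraries, 0.926 to 0.958, were lower than those of the control leflunomide libraries, 1.026 to 1.053, and both calls depended on them. With library totals alone the change was -0.14 for unc45b (adjusted p = 0.0678) and -0.17 for myf5 (adjusted p = 0.0628). Without replicate 1 in every group the calls were also lost, at an adjusted p of 0.0511 for unc45b and 0.0707 for myf5.

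For prdm1a the log2 difference with leflunomide in control embryos was -0.14 ± 0.06 (adjusted p = 0.124), with 117, 130 and 133 CPM in leflunomide, against 128, 148 and 141 CPM in DMSO. Each leflunomide library was below the DMSO library of its number although the groups overlapped, and the block fit called the fall (adjusted p = 0.0291), as did the fit without replicate 1 of control DMSO (adjusted p = 0.0394). SMYD1 ENSDARG00000091253 differed by -0.19 ± 0.10 (adjusted p = 0.185) and SMYD1 ENSDARG00000009280 by 0.28 ± 0.13 (adjusted p = 0.157). With library totals alone SMYD1 ENSDARG00000009280 was called higher in leflunomide (log2 fold change 0.41, adjusted p = 0.0392). The smyhc1 difference of 0.31 ± 0.59 had an interval of -1.05 to 1.68, wide enough to hold a change of a whole log2 unit in either direction. The myod1 difference was -0.11 ± 0.11 (adjusted p = 0.498), and with library totals alone it was 0.0181.

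Leflunomide in tif1g embryos set tif1g leflunomide against tif1g DMSO, and none of the 7 rows was called. In this comparison 0.617% of all genes were called, 0.192% higher and 0.425% lower, and with the block 7.09% of all genes and again none of the 7 rows. Groups lay above without overlap in both SMYD1 rows and below in none, beside 9.1% and 10.1% of all genes. The row with the smallest p was SMYD1 ENSDARG00000091253, with 20.1, 20.9 and 19.9 CPM in leflunomide, against 16.1, 15.7 and 19.3 CPM in DMSO, a difference of 0.25 ± 0.10 (adjusted p = 0.267). Its groups did not overlap. The smyhc1 difference was 0.90 ± 0.79 (adjusted p = 0.691), with the highest leflunomide library, replicate 2 at 3.97 CPM, above all DMSO libraries and the lowest, replicate 3 at 1.16 CPM, within them. The unc45b difference was -0.05 ± 0.05 with a 95% interval of -0.16 to 0.07.

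The interaction, which asks whether the knockdown differed between leflunomide and DMSO, called 0% of all genes by edgeR without the block, and so none of the 7 rows. With the replicate number as a block it called 1067 genes, 4.99% of those tested, 721 higher and 346 lower, and 2 of the 7 rows. Without the block there were 2560 genes at an unadjusted p under 0.05, 12% of those tested, and DESeq2 called 364 genes. Of the 7 rows, 2 had an unadjusted p under 0.05. As the knockdown in leflunomide minus the knockdown in DMSO, the difference was 0.45 ± 0.14 for SMYD1 ENSDARG00000091253 (adjusted p = 0.198) and 0.23 ± 0.08 for unc45b (adjusted p = 0.209), both log2. With the replicate number as a block both differences were called, at an adjusted p of 0.0223 for SMYD1 ENSDARG00000091253 and 0.0333 for unc45b. The size of these differences depends on the TMM factors. With library totals alone, without the block, the median difference of all genes moved by -0.0862. Differences for the other rows were 0.18 ± 0.09 for myf5, 0.11 ± 0.09 for prdm1a, 0.59 ± 0.99 for smyhc1, -0.01 ± 0.19 for SMYD1 ENSDARG00000009280 and 0.00 ± 0.15 for myod1, none called.

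**Figure D3:**
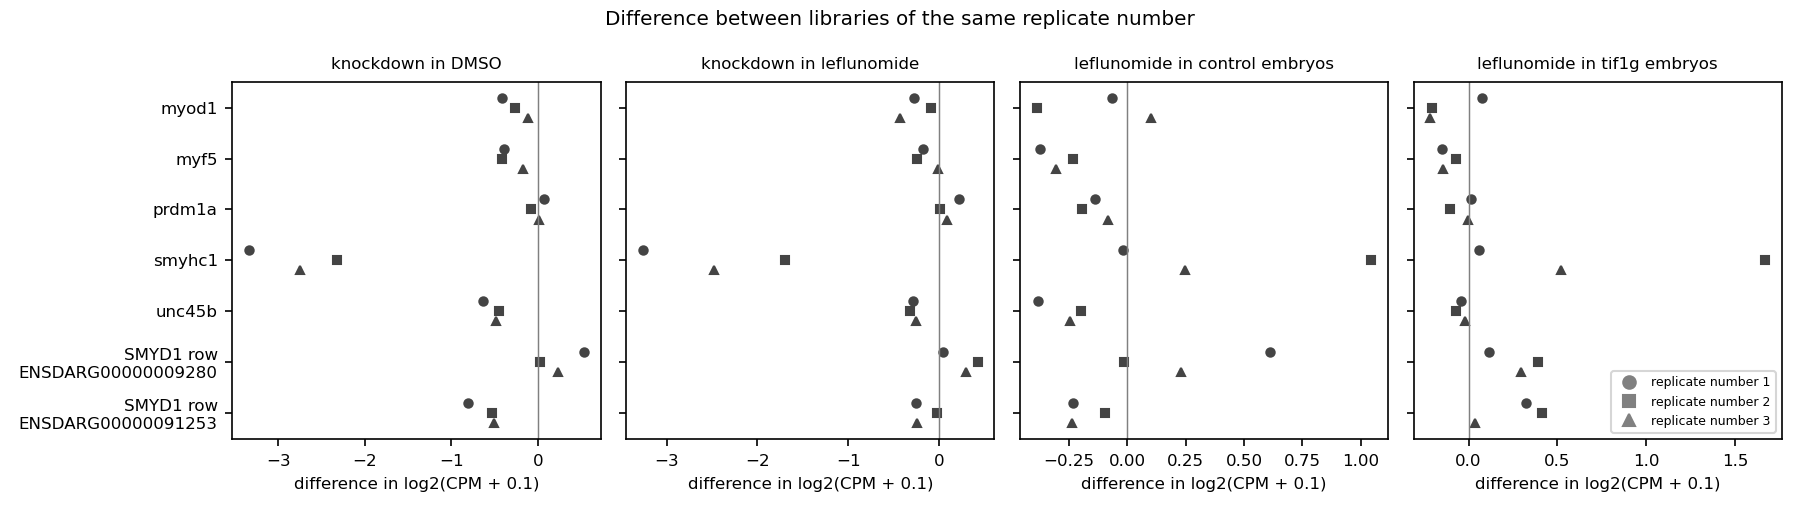
Difference in log2(CPM + 0.1) between libraries of the same replicate number (x axis) for each row in the 4 comparisons of a pair of groups, with a symbol for each number. For smyhc1 the knockdown differences in DMSO are -3.34, -2.32 and -2.75 in numbers 1, 2 and 3, and for unc45b they are -0.63, -0.44 and -0.48.

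By number, the knockdown difference in DMSO was below 0 in all 3 replicates for myod1, myf5, smyhc1, unc45b and SMYD1 ENSDARG00000091253. For myod1 it was largest in number 1, at -0.42, and smallest in number 3, at -0.11. In leflunomide the order differed, with -0.27 in number 1, -0.08 in number 2 and -0.43 in number 3. For prdm1a the DMSO difference was 0.07, -0.07 and 0.01 in numbers 1, 2 and 3. The smyhc1 level was highest in number 1 among control libraries of both treatments.

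Ordered by mean level, unc45b ran upward through tif1g leflunomide at 155 ± 5.29 CPM, tif1g DMSO at 160 ± 6.52, control leflunomide at 189 ± 7.78 and control DMSO at 229 ± 7.61 (SD, n = 3 each). The first pair of neighbours overlapped and the 2 steps above it did not. SMYD1 ENSDARG00000091253 ran upward through tif1g DMSO at 17.0 ± 2.01 CPM, tif1g leflunomide at 20.3 ± 0.541, control leflunomide at 22.9 ± 1.50 and control DMSO at 26.2 ± 3.08, and the top pair alone overlapped. SMYD1 ENSDARG00000009280 was highest in tif1g leflunomide at 10.0 ± 0.582 CPM, which stood apart, with tif1g DMSO at 8.32 ± 0.673, control leflunomide at 8.40 ± 1.00 and control DMSO at 6.94 ± 0.93 overlapping their neighbours. For myf5, tif1g leflunomide at 40.6 ± 1.71 CPM, tif1g DMSO at 44.3 ± 2.75 and control leflunomide at 45.0 ± 2.05 overlapped their neighbours, and control DMSO at 55.5 ± 2.39 stood apart above them. For smyhc1 the single gap was between tif1g leflunomide at 2.34 ± 1.46 CPM and control DMSO at 10.5 ± 7.67. For myod1 and prdm1a all neighbouring groups overlapped.

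Genes with a profile most like each row over the 12 libraries were found by the root mean square difference of centred log2 CPM, given here as a description. The closest to unc45b were abca1b (0.05) and chrac1 (0.05), and to myf5 rbm34 (0.05) and uba2 (0.05). The closest to prdm1a were stard3nl (0.03) and rictor (0.03), and to myod1 smyd2 (0.08) and rnf167 (0.09). For SMYD1 ENSDARG00000091253 they were arhgef1 (0.08) and dmgdh (0.10), and for SMYD1 ENSDARG00000009280 si:dkey-172h23.2 (0.09) and nav1 (0.09). For smyhc1 etsrp and sox10 were nearest, both at 0.61. This distance is not scaled and grows with a gene's own spread. The SD of log2 CPM over the 12 libraries was 1.585 for smyhc1 and 0.09063 to 0.2622 for the other rows. The larger distance therefore does not show that smyhc1 was matched less well.

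Muscle genes beyond the 6 were read from lists chosen for this tissue, and the knockdown in DMSO gave changes in both directions. In that comparison 32.8% of all genes were called, 15.6% higher and 17.2% lower, and 42.2% with the block. The share of all genes was 23.8% for the knockdown in leflunomide (33.7% with the block). It was 21.9% for leflunomide in control embryos (31.4% with the block). The counts of each list stand beside these shares. Of 26 other myogenic and muscle progenitor genes tested, 3 rose and 5 fell, with a median log2 fold change of -0.07 beside 0.00 over all genes. With library totals alone 4 rose and 4 fell, and with the block 4 rose and 7 fell. The myogenic factor gene myog rose by 0.63 ± 0.10 (adjusted p = 0.00022), with 179, 220 and 184 CPM in tif1g DMSO, against 112, 120 and 146 CPM in control DMSO. All tif1g libraries were above the control libraries, the opposite direction to myf5. The myog row stood above myf5, at 39.6 to 58.0 CPM over the 12 libraries, and myod1, at 17.6 to 27.2 CPM. Whether counting used strand is not given, and whether the myog count holds reads of other transcripts was not tested. The adhesion gene jam3 (ENSDARG00000061794), of a family that acts in zebrafish myoblast fusion, fell by 0.49 ± 0.06 and the paraxial mesoderm factor tcf15 by 0.63 ± 0.11. The muscle progenitor factor pax3 (ENSDARG00000028348) fell by 0.65 ± 0.14. This row is also listed as a marker of neural plate border and neural crest, so its fall is counted in both lists.

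In leflunomide the knockdown raised 1 and lowered 7 of these 26 genes, with a median of -0.20, and with the block it raised 3 and lowered 9. That count rested on single libraries. Without replicate 2 or 3 of tif1g leflunomide none rose and 4 fell, without replicate 1 or 2 of control leflunomide none rose and 3 fell, and without replicate 2 of every group none rose and 2 fell. Leflunomide in control embryos raised 7 of them and lowered none, with a median of 0.34 beside 0.02 over all genes. It raised 4 without replicate 1 of control leflunomide or replicate 2 of control DMSO, 3 without replicate 2 of control leflunomide, and 2 without replicate 2 of every group. The myog transcript rose by 0.72 ± 0.10 there (195, 225 and 200 CPM in leflunomide, against 112, 120 and 146 CPM in DMSO, adjusted p = 0.00019), while myf5 fell and myod1 was not called. The myog difference after the knockdown in leflunomide was 0.23 ± 0.10 (235, 242 and 249 CPM in tif1g embryos, against 195, 225 and 200 CPM in control embryos, adjusted p = 0.112), which the block fit called (adjusted p = 0.0497).

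**Figure D4:**
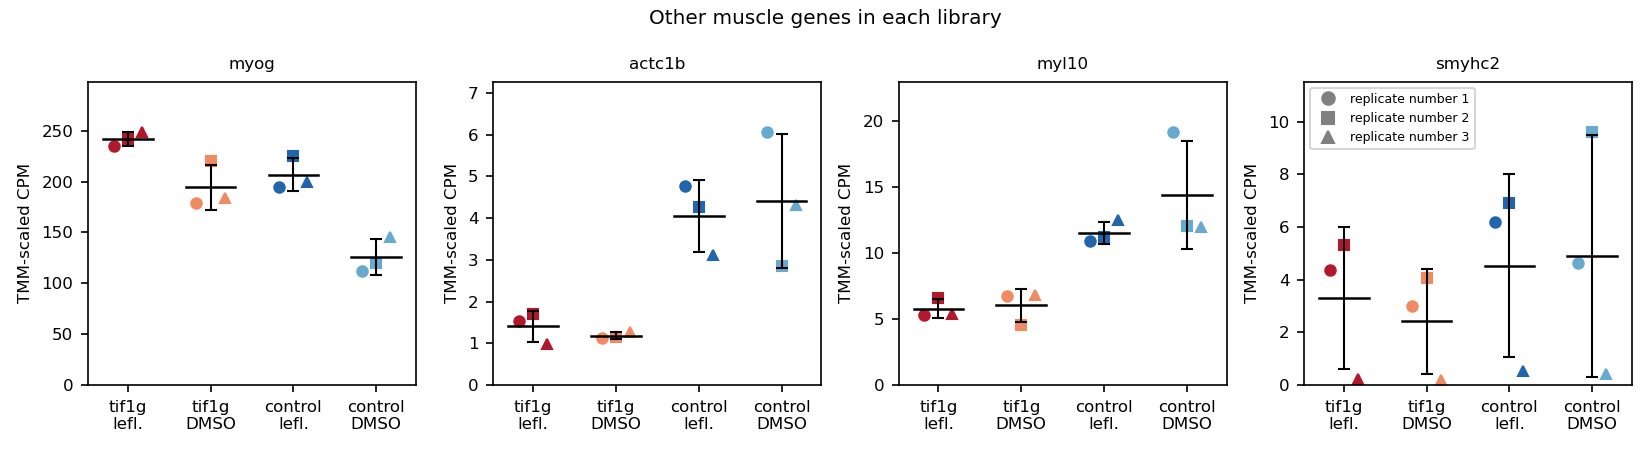
TMM-scaled CPM (y axis, starting at 0) of myog, actc1b, myl10 and smyhc2 in the 12 libraries by group, with symbols for the replicate number and mean ± SD of 3. The lowest myog libraries are those of control DMSO at 112 to 146 CPM, and smyhc2 is lowest in replicate 3 of each group.

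Of 63 listed symbols of structural genes of muscle, 55 were found by name, giving 61 rows. Among those without a match were smyhc3, vmhc, mylpfa, ttn.1 and desma. Of the 61 rows 41 were tested, and 9 rose and 6 fell after the knockdown in DMSO, with a median of 0.22. Called or not, their log2 fold changes ran from -1.90 to 2.92, so the largest difference was upward and is not among the genes named below. With the replicate number as a block, 12 rose and 11 fell, where 42.2% of all genes were called. The muscle actin gene actc1b fell, as smyhc1 did. It stood at 1.12, 1.15 and 1.27 CPM in tif1g DMSO, against 6.06, 2.85 and 4.32 CPM in control DMSO, and fell by 1.90 ± 0.28 (adjusted p = 4.96e-05). The myosin light chain gene myl10 stood at 6.72, 4.55 and 6.81 CPM in tif1g DMSO, against 19.2, 12.1 and 11.9 CPM in control DMSO, and fell by 1.26 ± 0.19 (adjusted p = 8.1e-05). For actc1b and myl10 the groups did not overlap, and both fell in leflunomide too, by 1.52 ± 0.28 and 0.99 ± 0.19.

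Other structural genes went the other way. The calcium release channel gene ryr1 (ENSDARG00000011422) rose by 0.62 ± 0.08 in DMSO (53.3 ± 2.96 CPM in tif1g DMSO and 34.7 ± 4.67 CPM in control DMSO). The troponin T gene tnnt3 (ENSDARG00000068457) rose by 0.99 ± 0.17 (20.3 ± 1.42 CPM in tif1g DMSO and 10.3 ± 3.19 CPM in control DMSO). In leflunomide the knockdown raised 7 and lowered 3 of the 41 rows, or 12 and 7 with the block, and leflunomide in control embryos raised 6 and lowered 1, or 9 and 2 with the block. Without replicate 1 of control leflunomide the knockdown in leflunomide raised 3 and lowered 3. Without replicate 2 of every group leflunomide in control embryos raised 2 and lowered 1. Several genes of later muscle had next to no reads, chosen here after their values were seen: tnnc1a with 0 to 1 counts a library, cav3 with 0 to 2, myf6 with 0 to 2 and myhz1.1 with 0 to 11.

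The myosin gene smyhc2, a near-identical neighbour of smyhc1 with no protein-coding gene between them on assembly GRCz12tu, was singled out after its values were seen. It had 86, 117 and 5 counts in tif1g DMSO, against 138, 273 and 12 counts in control DMSO. In leflunomide it had 124, 164 and 7 counts in tif1g embryos, against 185, 212 and 15 counts in control embryos. All 4 libraries of replicate 3 were near 0, while smyhc1 in the same libraries had 22 to 195 counts. The smyhc2 log2 difference after the knockdown in DMSO was -1.01 ± 1.35 (adjusted p = 0.622), and with the block -0.99 ± 0.21 (adjusted p = 0.000191). How reads that fit both genes were counted is not given, so the division of reads between smyhc1 and its neighbours is uncertain.

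Of 15 tested partners of Unc45b and other SMYD genes, 6 fell and 1 rose after the knockdown in DMSO, with a median of -0.18. With library totals alone 3 fell and 1 rose, and without replicate 2 of tif1g DMSO 3 fell and none rose. The co-chaperone gene stip1 fell by 0.52 ± 0.06 (84.0 ± 5.07 CPM in tif1g DMSO and 120 ± 3.17 CPM in control DMSO), and hsp90ab1, which encodes a general Hsp90, fell by 0.40 ± 0.06. The co-chaperone genes fkbp4 and ptges3 (ENSDARG00000089626) fell by 0.46 ± 0.08 and 0.18 ± 0.05. The muscle Hsp90 gene hsp90aa1.1, which lies outside the naming rule and was chosen after its value was seen, was lower by 0.90 ± 0.29 (adjusted p = 0.0455), a call lost under 15 of the 21 alternatives and without any 1 of 10 single libraries (adjusted p of up to 0.184). The call of ptges3 was lost with library totals alone and without replicate 2 of tif1g DMSO, with an adjusted p of up to 0.113 over the alternatives. The unc45a gene, the general form of the chaperone and likewise outside the naming rule and chosen after its value was seen, differed by -0.04 ± 0.09 (29.9 ± 3.94 CPM in tif1g DMSO and 30.8 ± 2.73 CPM in control DMSO, adjusted p = 0.751).

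In leflunomide the knockdown lowered 2 of these 15 genes and raised none, and with the block it lowered 4 and raised 1. Without replicate 1 of control leflunomide it lowered 1. Leflunomide in control embryos lowered 7 and raised 1, among them stip1 at -0.55 ± 0.06 and hsp90ab1 at -0.30 ± 0.06. The stip1 transcript was also lower with leflunomide in tif1g embryos, by 0.28 ± 0.06 in log2 units (adjusted p = 0.0493), where unc45b was not called. That call was lost under 14 of the 21 alternatives, without any 1 of 9 single libraries among them (adjusted p of up to 0.336).

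The Hedgehog pathway, which feeds the slow fate through prdm1a, had 4 of 19 rows called in the knockdown in DMSO, beside 32.8% of all genes. Of 19 rows tested, 1 rose and 3 fell after the knockdown in DMSO, with a median of 0.02, and with the block 3 rose and 7 fell. With library totals alone 4 rose and 3 fell, and without replicate 2 of control DMSO none rose and 2 fell. In leflunomide the knockdown raised 3 and lowered 2, or 3 and 6 with the block. Without replicate 1 of tif1g leflunomide it raised 1 and lowered 1, and without replicate 3 of tif1g leflunomide or replicate 1 or 2 of control leflunomide it raised 2 and lowered 1. The receptor and target gene ptch1 rose by 0.25 ± 0.07, the co-receptor gene gas1 (ENSDARG00000067984) fell by 0.46 ± 0.07 and disp1, needed for ligand release, fell by 0.28 ± 0.07. The hhatl row ENSDARG00000039051 fell by 1.42 ± 0.48, at 0.234 ± 0.109 CPM in tif1g DMSO and 0.631 ± 0.128 CPM in control DMSO. Of 13 listed symbols of slow fibre regulators and engrailed genes, 8 were found by name. The symbols prdm1c, eng1a, eng1b, eng2a and eng2b had no match, so no engrailed gene was read. Of 8 slow fibre regulators tested, 1 was called, pbx2, a partner of Myod1 in the zebrafish, which rose by 0.21 ± 0.06. With library totals alone, or without replicate 2 of control DMSO, 2 of these 8 rose, and with the block 1 rose and 1 fell. Without replicate 1 of control DMSO the calls of pbx2 and hhatl were lost, that of hhatl also without replicate 2 of control DMSO or replicate 1 or 2 of tif1g DMSO, and that of ptch1 without replicate 2 of control DMSO. The adjusted p reached 0.119 for pbx2, 0.24 for hhatl and 0.145 for ptch1 over the alternatives.

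In the paraxial mesoderm, from which the muscle precursors come, 2 of 27 genes rose and 5 fell after the knockdown in DMSO (with library totals alone 2 and 2), with a median of -0.07. The somite genes foxc1b and mespbb fell by 0.51 ± 0.10 and 0.55 ± 0.17, fgf8 (ENSDARG00000003399) fell by 0.18 ± 0.06 and snai1a rose by 0.26 ± 0.07. Single libraries decided 3 of these calls. That of mespbb was lost without replicate 1 or 2 of tif1g DMSO or replicate 1 of control DMSO, and that of fgf8 without replicate 1 or 2 of either group. That of snai1a was lost without replicate 2 of tif1g DMSO or replicate 1 or 3 of control DMSO. The adjusted p reached 0.193 for mespbb, 0.199 for fgf8 and 0.121 for snai1a over the alternatives. For the whole list, none rose and 1 fell without replicate 2 of tif1g DMSO, none rose and 2 fell without replicate 1 of control DMSO, and none rose and 3 fell without replicate 3 of control DMSO. In leflunomide the knockdown raised 1 of the 27 and lowered none, and the direction of the calls depended on the setting. With the block it raised 6 and lowered 4, and with library totals alone it raised none and lowered 3. None was called without replicate 1 of tif1g leflunomide, and 2 rose and 1 fell without replicate 2 of control DMSO. Leflunomide in control embryos lowered 8 and raised none, but with library totals alone it raised 2 and lowered 2. It lowered 3 without replicate 1 of control leflunomide or replicate 2 of control DMSO, and 2 without replicate 2 of control leflunomide.

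**Figure D5:**
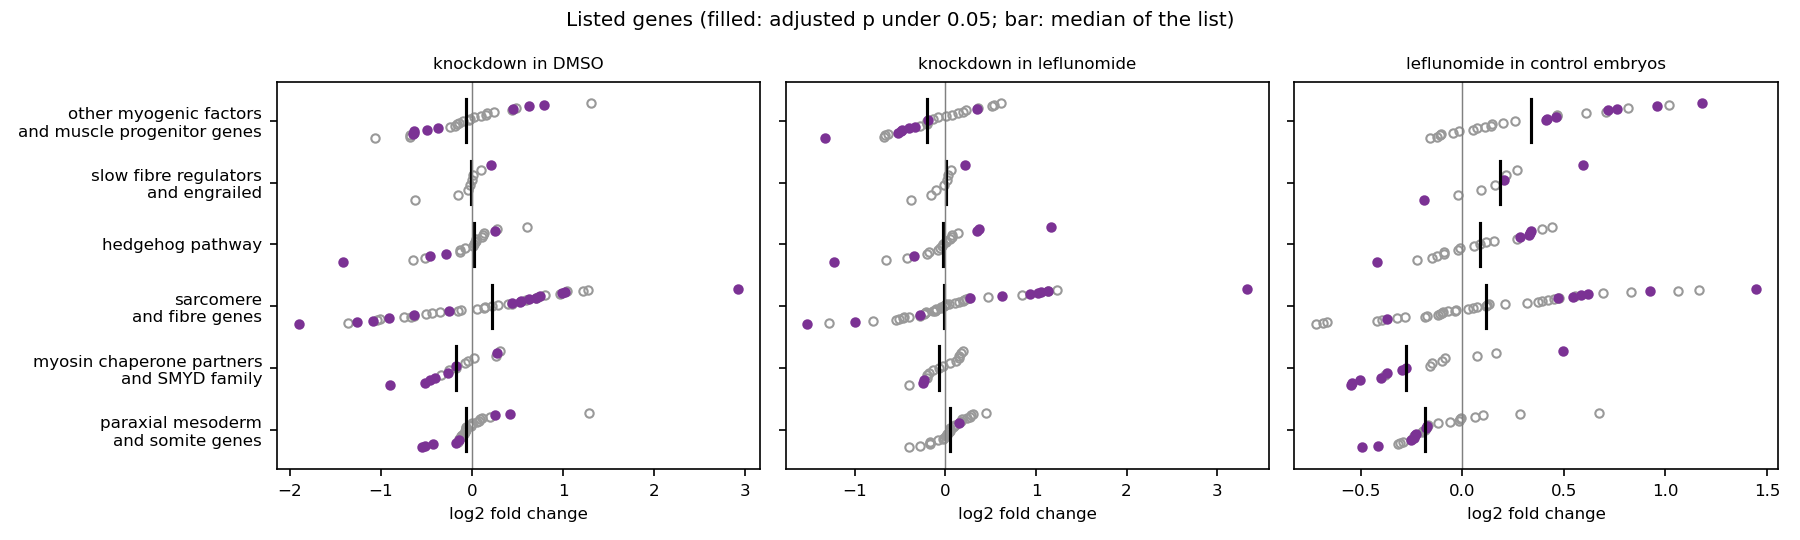
Log2 fold change (x axis) of each tested gene of 6 lists in the knockdown in DMSO, the knockdown in leflunomide and leflunomide in control embryos, filled where called, with a bar at each list's median. The structural genes hold both the falls of actc1b and myl10 and rises such as that of tnnt3, and run from -1.90 to 2.92 in the knockdown in DMSO.

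Markers of other cells of the embryo were read in the same way. In the knockdown in DMSO, 32.8% of all genes were called, 15.6% higher and 17.2% lower, and 42.2% with the block. The counts of markers below stand beside these shares. Of 12 enveloping layer markers, 2 rose and 9 fell in DMSO, and their summed level was 11852 to 12631 CPM in tif1g DMSO and 14324 to 15462 CPM in control DMSO. It was 12622 to 12727 CPM in tif1g leflunomide and 12612 to 13131 CPM in control leflunomide, so it also differed between leflunomide and DMSO in control embryos, where unc45b and myf5 fell. Of 9 hatching gland and prechordal plate markers, where prdm1a is also on, 1 rose and 4 fell (2 and 4 with library totals alone), with summed levels of 439 to 475 CPM in tif1g DMSO and 498 to 511 CPM in control DMSO. Among them he1.2 fell by 1.23 ± 0.24 and klf17 rose by 0.26 ± 0.07. Of 13 neural plate border and neural crest rows, 1 rose and 3 fell (2 and 6 with the block, 2 and 2 with library totals alone), with summed levels of 874 to 916 CPM in tif1g DMSO and 807 to 878 CPM in control DMSO. The pax3 row, also counted among the muscle progenitor genes, is 1 of the 3 that fell. Each marker of these 3 lists had counts in every library, and their part in the muscle gene values was not tested.

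Of 10 notochord rows, 1 rose and 2 fell in DMSO (2 and 3 with the block, 3 and 2 with library totals alone), with summed levels of 236 to 262 CPM in tif1g DMSO and 260 to 283 CPM in control DMSO. Without replicate 2 or 3 of tif1g DMSO or replicate 1 of control DMSO, 1 rose and none fell. In leflunomide the knockdown raised 3 notochord rows and lowered none, or 4 and 2 with the block, and raised 1 without replicate 1 or 3 of tif1g leflunomide or replicate 1 or 2 of control leflunomide. Over all genes the knockdown in leflunomide called 23.8%, 12% higher and 11.8% lower, and 33.7% with the block. Of 7 heart and lateral mesoderm markers tested, the tissue that shares actc1b with skeletal muscle, none rose and 3 fell (1 and 3 with library totals alone). The summed level, taken over all 8 listed rows, was 288 to 326 CPM in tif1g DMSO and 272 to 317 CPM in control DMSO. Of 5 primary neuron markers, none rose and 3 fell, with summed levels of 46.2 to 51.5 CPM in tif1g DMSO and 60.0 to 65.1 CPM in control DMSO. Between tif1g DMSO and control DMSO, the summed ranges of the neural plate border, notochord and heart lists overlapped. Those of the enveloping layer, hatching gland and neuron lists did not. The sums carry the TMM factors, 0.979 to 1.006 in tif1g DMSO and 0.926 to 0.958 in control DMSO. Whether each separation holds on library totals alone was not tested. The part of these cells in the results was not tested.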

How the data were processed

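The authors deposited counts, whole numbers of reads per Ensembl gene without normalization. Per the submitters' processing notes, FastQC, cutadapt, TopHat2 2.0.11, Cufflinks 2.2.1 and HTSeq were used, with genome build GRCz11. Whether counting used strand, and the release of its annotation, were not given in the sources used here. Symbols came from a gene name table that covered 29201 of the 32520 identifiers, and where the table lacked a symbol with a final a or b, the same symbol without that letter was used. Gene positions on GRCz12tu were used only to count protein-coding genes between pairs of genes, as for smyhc1 and smyhc2, and no sequences were used.

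In R 4.3.3, edgeR 4.0.16 (filterByExpr) kept 21400 of the 30339 genes with a count. All 12 libraries entered 1 model of 4 group means with TMM factors and edgeR's robust quasi-likelihood fit (biological coefficient of variation 0.113). Adjusted p-values are those of its quasi-likelihood F test after Benjamini-Hochberg adjustment. Steps were tested on simulated data. Depth was 27574593 to 32088082 counts a library, and replicates differed by a chi-square of 7.09 to 15 per degree of freedom. Differences by replicate number used log2(CPM + 0.1).

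The series text says that clutches were divided over the treatments. Libraries of the same replicate number deviated together from their group means, with correlations of 0.276 to 0.498 in all 18 pairs over 14821 genes, and each of the 12 libraries was most like one of its own number, so the fit with the number as a block is given where it changes a printed call or moves a printed count by over 1.5 times.

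The members and the gene lists were chosen with earlier results of these data known. Named genes are the 6 members, up to 4 genes of each list with the smallest p among those called in the knockdown in DMSO, and the 2 nearest profiles of each member. Genes named outside this rule are marked as chosen after their values were seen. Alternatives were DESeq2 1.42.0 and its size factors, library totals alone, no filter, fits of the compared groups only, the replicate block, and leaving out each library or replicate number.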

Additional observations from a re-analysis of the deposited data

Results flagged for a closer look

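For 5 of the genes named, the effect of the knockdown differed between leflunomide and DMSO in the fit with the replicate number as a block. In that fit 4.99% of all genes were called, but the 5 cannot be read against this share. The genes stip1, fkbp4 and ryr1 were named for a small p in the knockdown in DMSO, which is 1 side of the difference, so a smaller effect in leflunomide is favoured by how they were chosen. None of these differences was called by edgeR without the block. Values are log2 differences, the knockdown in leflunomide minus the knockdown in DMSO. Their size depends on the TMM factors. With library totals alone, without the block, the median difference of all genes moved by -0.0862. For unc45b the difference was 0.232 (adjusted p = 0.0333 with the block and 0.209 without it), with falls of 0.29 in leflunomide and 0.52 in DMSO. For SMYD1 ENSDARG00000091253 it was 0.4498 (adjusted p = 0.0223 with the block and 0.198 without it). The co-chaperone genes stip1 and fkbp4 differed by 0.2661 (adjusted p = 0.0241 with the block and 0.214 without it) and 0.2542 (0.0383 with the block and 0.401 without it). The calcium release channel gene ryr1 ENSDARG00000011422 differed by -0.4194 (adjusted p = 0.0120 with the block and 0.163 without it), with a rise of 0.62 in DMSO and a difference of 0.20 in leflunomide. The block fit also called ryr1 higher after the knockdown in leflunomide (adjusted p = 0.0218, and 0.0817 without the block).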

How the results depend on the processing

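Library totals alone moved the median of all genes by 0.0724 in the knockdown in DMSO and by 0.132 in leflunomide in control embryos (log2). The share of calls that were higher moved to 59.9%, beside 47.5%, in the knockdown in DMSO, to 74.4%, beside 40.4%, with leflunomide in control embryos, and to 77.3%, beside 31.1%, with leflunomide in tif1g embryos. With leflunomide in tif1g embryos 132 genes were called, and 66 with library totals, 652 with DESeq2, 40 with the compared groups alone and 1518 with the replicate block. The interaction called 0 genes, and 3 with library totals, 1 without a filter, 364 with DESeq2 and 1067 with the replicate block. Of the 7 rows, library totals called 1 rather than 2 with leflunomide in control embryos, and the replicate block called 2 rather than 0 in the interaction. It also called 5 rather than 4 rows in the knockdown in DMSO, 3 rather than 2 in the knockdown in leflunomide and 3 rather than 2 with leflunomide in control embryos. Leaving out libraries or numbers gave 3006 to 5289 genes in the knockdown in leflunomide, 2114 to 4641 with leflunomide in control embryos and 0 to 208 with leflunomide in tif1g embryos, and 1 to 2 and 0 to 3 rows in the first 2 of these. Signs turned for differences that were not called. With library totals these were myod1 with leflunomide in control embryos (0.0181) and in the interaction (-0.0821), prdm1a (0.0145) and unc45b (0.00068) with leflunomide in tif1g embryos. The replicate block turned myod1 in the interaction (-0.00046), and no filter turned prdm1a in the knockdown in DMSO (-0.0021). Without single libraries or numbers the ranges crossed 0 for myod1 in the interaction (-0.10 to 0.15) and with leflunomide in control embryos (-0.22 to 0.0129), and for prdm1a in the knockdown in DMSO (-0.0543 to 0.0488) and with leflunomide in tif1g embryos (-0.0621 to 0.0045). They also crossed it for smyhc1 with leflunomide in control embryos (-0.0665 to 1.11) and in the interaction (-0.21 to 0.97), and for SMYD1 ENSDARG00000009280 in the interaction (-0.23 to 0.23). The causes were not tested. For smyhc1 the spread between pools exceeded counting error, with a coefficient of variation of 41.8% in tif1g DMSO where counting alone gives 16.7%. Of the 61 structural rows, 41 had counts enough to be tested.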
